A study of Homo sapiens with 8 samples.

Results

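Creatine metabolism is described here through 7 genes, GATM, GAMT, SLC6A8, CKB, CKM, CKMT1A and CKMT1B, of the 25411 genes counted in each library. GATM was chosen by its measured pattern across the groups, so its levels and fold changes are given as a description without a test. The other 6 genes were chosen for their place in the pathway, with earlier results of these data known, and 5 of them could be tested. RNA-Seq was performed in 4 groups of 2 biological replicates each, all of them BEAS-2B, a cell line established from the epithelium of human bronchi. Untreated cells (UT) received no nickel, and nickel-exposed cells (Ni-E) were kept in 100 µM NiCl2 over 6 weeks. The washed-out group Ni-W was exposed in the same way, and a colony grown from a single exposed cell was then expanded in nickel-free medium for more than 6 months. A further group, HCl3, carries the same exposure and single-cell cloning in its labels, without its own time in nickel-free medium or its relation to Ni-W. The protocol text shared by all samples also mentions a nickel-free culture of 2 weeks, and whether it applies to either washed-out group is not clear from it. Each washed-out group derives from single-cell cloning, so clonal differences and the effect of past exposure cannot be told apart. The labels give an experiment number to the Ni-E and HCl3 libraries and none to UT and Ni-W, so experiment and group cannot be told apart either.

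Creatine is made in a pair of steps. Glycine amidinotransferase, encoded by GATM, moves the amidino group of arginine onto glycine, which gives guanidinoacetate and ornithine and is the committed and regulated step. Guanidinoacetate N-methyltransferase (GAMT) then adds a methyl group from S-adenosylmethionine. Creatine also enters cells through the sodium-dependent transporter SLC6A8, and creatine kinases charge it to phosphocreatine, a short-term energy buffer. CKB is the brain-type cytosolic kinase, CKM the muscle-type kinase, and CKMT1A and CKMT1B are duplicated genes for the ubiquitous mitochondrial kinase. Kidney and pancreas are the classical sites of GATM expression, whereas GAMT is prominent in liver.

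On hg19, the build of the deposited tables, GATM lies on the minus strand at chr15:45653322-45670980 and GAMT on the minus strand at chr19:1397810-1401569. SLC6A8 lies on the plus strand at chrX:152954966-152962048, CKB on the minus strand at chr14:103985995-103989196 and CKM on the minus strand at chr19:45809671-45826235. CKMT1B (chr15:43885252-43891604) and CKMT1A (chr15:43985084-43991420) lie on the plus strand of the same chromosome as GATM. RefSeq promoter windows were found for 6 of the 7 genes. The 250 bases before the annotated start are shown for GATM, the gene whose level varied most, and for CKB, the kinase whose level separated the washed-out groups. They come from GRCh38.p14, at chr15:45378545-45378794 for GATM and chr14:103522831-103523080 for CKB, both read on the minus strand. Capitals mark ACGTG, the core of the element bound by hypoxia-inducible factors, and CCAAT, the CCAAT box.
GATM: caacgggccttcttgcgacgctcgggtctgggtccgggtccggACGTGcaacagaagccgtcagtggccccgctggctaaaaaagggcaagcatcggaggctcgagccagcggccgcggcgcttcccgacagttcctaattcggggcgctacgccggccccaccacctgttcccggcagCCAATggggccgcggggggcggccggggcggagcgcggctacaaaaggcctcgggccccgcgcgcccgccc
CKB: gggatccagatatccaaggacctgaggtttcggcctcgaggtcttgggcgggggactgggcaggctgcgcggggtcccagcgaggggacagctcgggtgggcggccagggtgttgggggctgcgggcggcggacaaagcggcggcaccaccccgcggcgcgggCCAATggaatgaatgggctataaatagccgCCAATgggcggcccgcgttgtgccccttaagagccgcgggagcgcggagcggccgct

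The GATM window held 1 ACGTG, at position -207 from the start, and 1 CCAAT, at -71. The CKB window held no ACGTG and 2 CCAAT, at -87 and -57. Both motifs were searched on both strands, and 18.5% of all 35116 such windows held ACGTG and 32.0% held CCAAT, so neither is particular to these genes. TGATGNAA, a form of the amino acid response element, was in none of the members' windows and in 3.1% of all windows. GC content was 72.8% in the GATM window and 70.8% in the CKB window.

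Sequencing depth ranged from 26383920 to 45692298 reads assigned to genes per library, and UT replicate 2 was the shallowest. A gene with no read in a library could still have had up to 3 reads by counting error alone, and the intervals given for single counts cover counting error only. KRT7, KRT8 and KRT18, keratins of simple epithelia, reached 144 RPKM or more in every library. CDH1 (E-cadherin) did not exceed 0.11 RPKM, and SCGB1A1, SFTPC and FOXJ1, which define club, alveolar type II and ciliated cells, had at most 1 read in any library. Skeletal muscle markers summed to between 0.15 and 0.41 RPKM per library with MYOG, MYH7 and TNNT3 at 0 reads, and kidney proximal tubule markers summed to at most 0.12 RPKM. Of the brain markers, MBP alone reached 1 RPKM. In bulk RNA, fewer cells expressing a gene and less RNA per cell cannot be told apart.

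GATM was close to silent in untreated cells and was present at a low level in each group with a history of nickel. UT replicates 1 and 2 held 8 and 3 GATM reads, with exact 95% Poisson intervals of 3.45 to 15.8 and 0.619 to 8.77 reads. The Ni-E libraries held 117 and 135 reads, those of Ni-W 66 and 53, and those of HCl3 50 and 68. The lowest of the 6 libraries with nickel exposure had 50 reads. In RPKM, which divides reads by transcript length and library size, GATM was 0.07 and 0.04 in the UT libraries, 1.17 and 1.37 in those of Ni-E, 0.50 and 0.59 in those of Ni-W and 0.47 and 0.61 in those of HCl3. The group means were 0.055 ± 0.021 RPKM for UT, 1.27 ± 0.14 for Ni-E, 0.545 ± 0.064 for Ni-W and 0.54 ± 0.099 for HCl3 (SD, n = 2 in each). The order of the levels was therefore UT, then HCl3 and Ni-W, then Ni-E. HCl3 and Ni-W overlapped, and the other neighbours in that order did not.

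**Figure D1:**
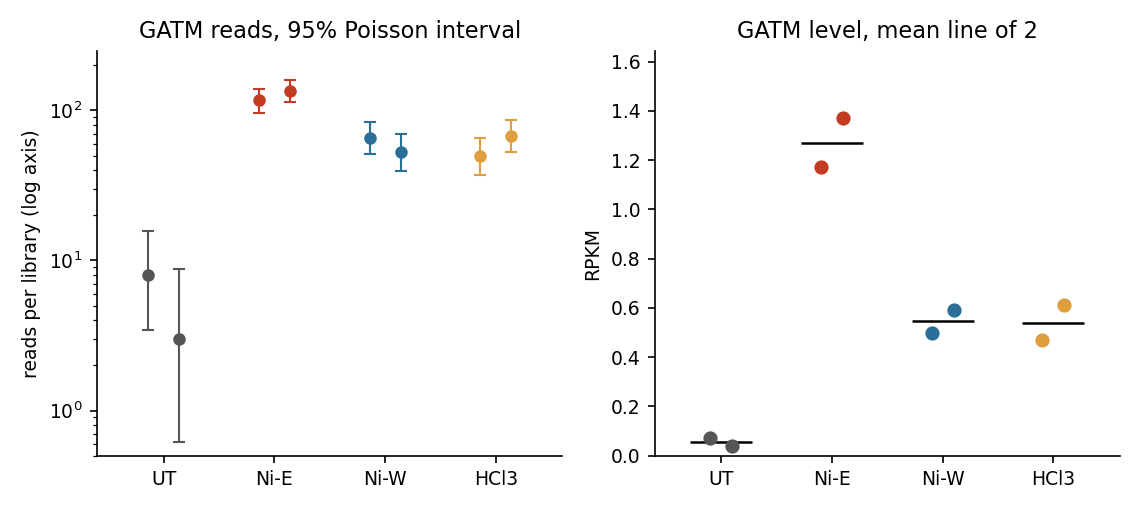
GATM in each of the 8 libraries, by group (x axis). Left, reads per library on a log axis with exact 95% Poisson intervals; right, RPKM on a linear axis with the mean of 2 libraries as a line. UT libraries hold 3 and 8 reads, Ni-E libraries hold 117 and 135, and the 4 Ni-W and HCl3 libraries lie between 50 and 68.

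Summed over the replicates and scaled to total reads, GATM was 21.3 times higher in Ni-E than in UT, with an exact counting interval of 11.7 to 43.3 (252 against 11 reads). The same ratio was 8.99 for Ni-W over UT (4.85 to 18.5, 119 against 11 reads) and 9.11 for HCl3 over UT (4.91 to 18.7, 118 against 11 reads). GATM in washed-out cells was thus between the level of untreated cells and that of nickel-exposed cells. The ratio was 0.422 for Ni-W to Ni-E (0.336 to 0.526) and 0.427 for HCl3 to Ni-E (0.34 to 0.534). Between HCl3 and Ni-W it was 1.01 (0.779 to 1.32). All of these intervals pool the replicates and cover counting error only, not the spread between replicates. The fitted log2 fold changes, with the 6 comparisons sharing libraries, were 4.38 (SE 0.60) for Ni-E against UT, 3.19 (SE 0.71) for Ni-W against UT and 3.17 (SE 0.70) for HCl3 against UT. The scale matters for so low a gene: on log2(RPKM + 1), the same differences were 1.10, 0.55 and 0.54. GATM has a GC content of 42.0%, and removing the trends of the fold changes with GC content and length left its values at 4.44, 3.19 and 3.25.

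GAMT, the methyltransferase of the next step, was abundant in all groups and highest in Ni-E. UT libraries held 44.53 and 36.20 RPKM, Ni-E libraries 70.23 and 68.24, Ni-W libraries 45.04 and 37.89, and HCl3 libraries 32.40 and 33.62. Both Ni-E libraries were above all other libraries and both HCl3 libraries were below all others, whereas UT and Ni-W overlapped. With DESeq2, a gene was called at an adjusted p under 0.05 over all genes tested and a change of at least 1.5-fold. GAMT rose 1.64-fold in Ni-E over UT (log2 fold change 0.72, SE 0.13, DESeq2 adjusted p = 6.35e-06), a call that limma on log2(RPKM + 1) did not make (limma adjusted p = 0.0926). GAMT was the 1 member of 5 tested that was called higher there, against 3.84% of the 14140 genes tested, and 0 were called lower by DESeq2 or edgeR, or had an unadjusted p under 0.05 in that direction (2.1% of all genes were called lower).

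Against Ni-E, GAMT was lower in both washed-out groups. Its log2 fold change was -0.74 (SE 0.12, DESeq2 adjusted p = 2.66e-09) in Ni-W and -1.08 (SE 0.098, DESeq2 adjusted p = 1.88e-26) in HCl3. Against UT, GAMT differed by -0.01 in Ni-W, with a 95% interval of -0.29 to 0.26, and by -0.35 in HCl3 (DESeq2 adjusted p = 0.0207), below the 1.5-fold threshold. HCl3 against Ni-W gave -0.34 (DESeq2 adjusted p = 0.0132), also below that threshold.

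SLC6A8, the creatine importer, was likewise highest in nickel-exposed cells. UT libraries held 10.02 and 9.33 RPKM, Ni-E libraries 15.22 and 13.85, Ni-W libraries 7.40 and 9.65, and HCl3 libraries 11.81 and 11.85. Both Ni-E values exceeded every other library, both HCl3 values exceeded those of UT and Ni-W, and these last groups overlapped. The log2 fold change in Ni-E over UT was 0.52 (SE 0.13), or 1.43-fold, which did not reach the threshold of 1.5-fold although its DESeq2 adjusted p was 0.00205. SLC6A8 fell in Ni-W against Ni-E by 0.76 on the log2 scale (SE 0.14, DESeq2 adjusted p = 9.7e-07). HCl3 differed from Ni-E by -0.30, from UT by 0.23 and from Ni-W by 0.46 (DESeq2 adjusted p = 0.0155, 0.111 and 0.00294). None of these reached 1.5-fold, so none was called. With the GC and length trends removed, SLC6A8 became 0.33 in Ni-E over UT (DESeq2 adjusted p = 0.0425) and 0.07 in HCl3 over UT. With the replicate number also in the model, the DESeq2 adjusted p for Ni-E over UT was 0.322. The pseudogene copy SLC6A10P, whose reads could be confused with those of SLC6A8, was listed at 0 reads in all libraries. Reads with several alignments were removed upstream, so this cannot show whether SLC6A8 lost reads that match both.

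CKB, the cytosolic kinase, separated the washed-out groups. UT libraries held 21.29 and 17.35 RPKM, Ni-E libraries 26.46 and 29.64, Ni-W libraries 13.88 and 15.89, and HCl3 libraries 29.97 and 32.83. The order was Ni-W, UT, Ni-E and HCl3, and no neighbouring groups overlapped. CKB was 2.09-fold higher in HCl3 than in Ni-W (log2 fold change 1.07, SE 0.11, DESeq2 adjusted p = 2.1e-18), the 1 member called between these groups, where 3.18% of all genes were called higher and 1.72% lower. Of the members, 0 were called lower there by DESeq2 or edgeR. In that direction 1, GAMT, had an unadjusted p under 0.05 (DESeq2 adjusted p = 0.0132, under 1.5-fold). Over UT, CKB rose 1.56-fold in HCl3 (log2 fold change 0.64, SE 0.13, DESeq2 adjusted p = 1.44e-05). Against Ni-E it fell in Ni-W by 0.91 on the log2 scale (SE 0.13, DESeq2 adjusted p = 1.04e-10).

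The CKB values for Ni-E over UT (0.48, DESeq2 adjusted p = 0.0169) and for Ni-W against UT (-0.42, DESeq2 adjusted p = 0.0262) did not reach 1.5-fold. With the GC and length trends removed, they became 0.18 (DESeq2 adjusted p = 0.396) and -0.31 (DESeq2 adjusted p = 0.0534). HCl3 differed from Ni-E by 0.15, with a 95% interval of -0.06 to 0.37. With those trends removed, this difference was 0.36 (SE 0.10, DESeq2 adjusted p = 0.00148), still under 1.5-fold.

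**Figure D2:**
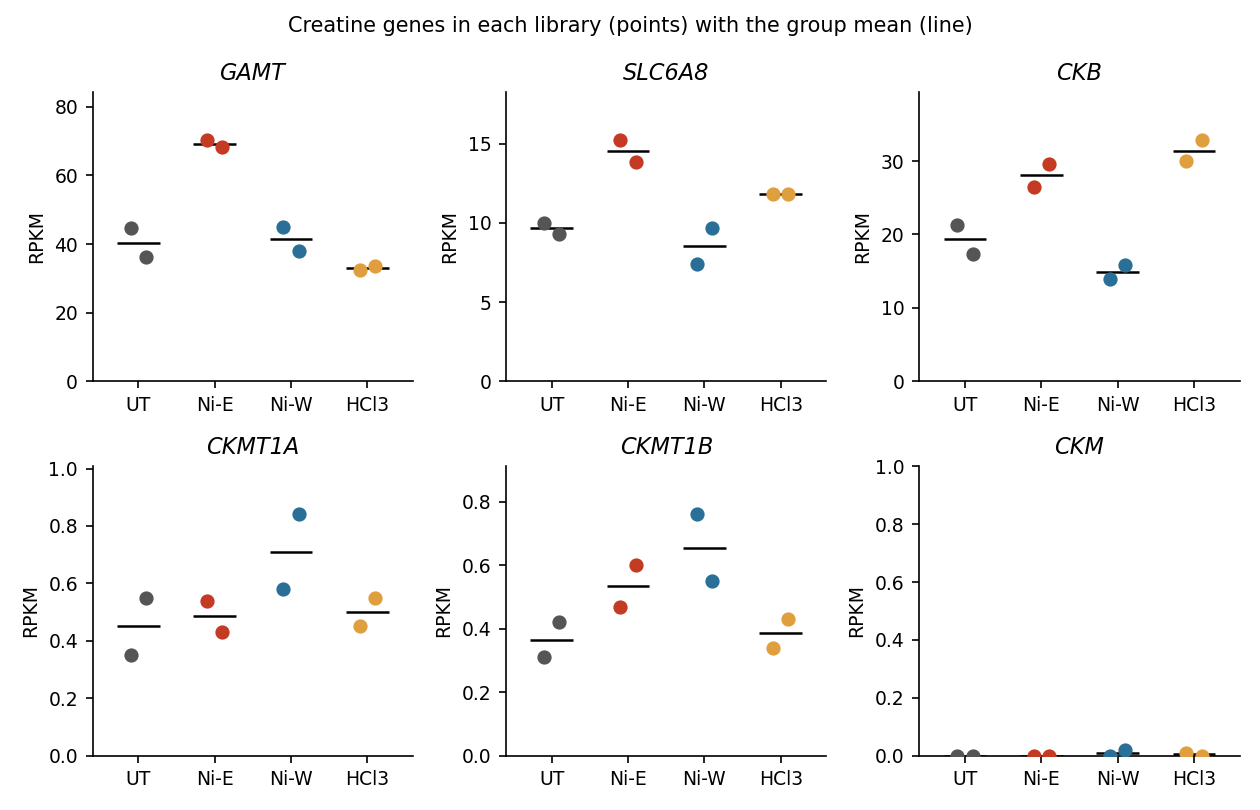
RPKM (y axis, linear, each panel with its own scale) of 6 creatine genes in each of the 8 libraries (points) by group (x axis), with the mean of 2 libraries as a line. GAMT and SLC6A8 are highest in both Ni-E libraries, CKB is highest in both HCl3 libraries and lowest in both Ni-W libraries, and CKM stays at or near 0.

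The mitochondrial kinase genes were low. CKMT1A had 26 and 29 reads in the UT libraries, 37 and 29 in those of Ni-E, 53 and 52 in those of Ni-W, and 33 and 42 in those of HCl3. CKMT1B had 23 and 22 reads in the UT libraries, 32 and 41 in those of Ni-E, 70 and 34 in those of Ni-W, and 25 and 33 in those of HCl3. Both genes had their highest mean in Ni-W, at 0.71 ± 0.18 RPKM for CKMT1A and 0.655 ± 0.15 RPKM for CKMT1B (SD, n = 2). The lower Ni-W library of CKMT1A was at 0.58 RPKM against 0.55 in the upper UT library, and that of CKMT1B was at 0.55 RPKM against 0.42. The log2 fold changes of Ni-W over UT were 0.63 (SE 0.54) and 0.84 (SE 0.56), and none of the 6 comparisons called either gene with DESeq2. With edgeR's quasi-likelihood test, CKMT1B alone was called, higher in Ni-W than in UT (log2 fold change 0.86, edgeR adjusted p = 0.0413). At this depth, the 95% interval for CKMT1B in Ni-W over UT ran from 0.836-fold to 3.82-fold.

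CKMT1A and CKMT1B share much of their sequence. Of the 50-base windows of the longest GENCODE transcript of CKMT1A, 1553 of 1730 (89.8%) also occurred in a CKMT1B transcript, and of those of the longest CKMT1B transcript 1327 of 2347 (56.5%) occurred in a CKMT1A transcript. Their promoter windows shared an unbroken run of up to 225 bases. Since reads with several alignments were removed upstream, reads that matched both copies were not counted for either gene, and both counts are uncertain. Summing the copies gave 49 and 51 reads for UT, 69 and 70 for Ni-E, 123 and 86 for Ni-W, and 58 and 75 for HCl3, a log2 fold change of 0.73 (SE 0.39, DESeq2 adjusted p = 0.153) for Ni-W over UT. Of the genes annotated between the copies, STRC had 1 read over all libraries and CATSPER2 had 48.

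CKM, the muscle kinase, had 1 read in Ni-W replicate 2, 1 read in HCl3 replicate 1 and none in the other 6 libraries. It could not be tested, and no fold change is given.

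Counting over the 5 members tested, 1 was called higher and 0 lower in Ni-E over UT, and 0 were called in Ni-W over UT, where 11.1% of all genes were called higher and 4.95% lower. In that last comparison 1 member, CKB, had an unadjusted DESeq2 p under 0.05 (DESeq2 adjusted p = 0.0262, under 1.5-fold), and edgeR called 1, CKMT1B. In HCl3 over UT, 1 was called higher and 0 lower by DESeq2 and by edgeR, where 11.4% of all genes were called higher and 3.84% lower. There, 1 member, GAMT, had an unadjusted p under 0.05 in the lower direction (DESeq2 adjusted p = 0.0207, under 1.5-fold). In Ni-W against Ni-E, GAMT, SLC6A8 and CKB, or 3 of 5, were called lower and 0 higher by DESeq2 and by edgeR, with 0 at an unadjusted p under 0.05 in the higher direction, against 9.04% lower and 12.0% higher over all genes. In HCl3 against Ni-E, GAMT was the 1 member called lower, against 6.95% of all genes, and 0 were called higher by DESeq2 or edgeR or had an unadjusted p under 0.05 in that direction (10.6% of all genes were called higher).

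GAMT, SLC6A8 and CKB are rich in GC. Their transcripts have 59.6%, 63.0% and 65.0% GC, which placed them above 84.7%, 93.2% and 96.5% of expressed genes. Fold changes over all expressed genes ran with GC content in several comparisons. Spearman's rho across genes was 0.34 for Ni-E over UT, 0.271 for HCl3 over UT, -0.137 for Ni-W against Ni-E and 0.344 for HCl3 against Ni-W. It was 0.0723 for Ni-W over UT and 0.0236 for HCl3 against Ni-E. The replicates also differed with GC content, most in UT (rho 0.484 between UT replicates 1 and 2). With the GC and length trends removed, GAMT in Ni-E over UT became 0.51 (DESeq2 adjusted p = 1.51e-05) and CKB in HCl3 over UT became 0.56 (DESeq2 adjusted p = 2.5e-08), both under 1.5-fold and so no longer called. In Ni-W against Ni-E, the values became -0.39 for GAMT, -0.58 for SLC6A8 and -0.51 for CKB, and none of the 3 was called. The directions held in these comparisons. GAMT in HCl3 against Ni-E remained called at -0.83 (SE 0.092, DESeq2 adjusted p = 6.27e-18), and so did CKB in HCl3 against Ni-W at 0.86 (SE 0.11, DESeq2 adjusted p = 5.13e-13).

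**Figure D3:**
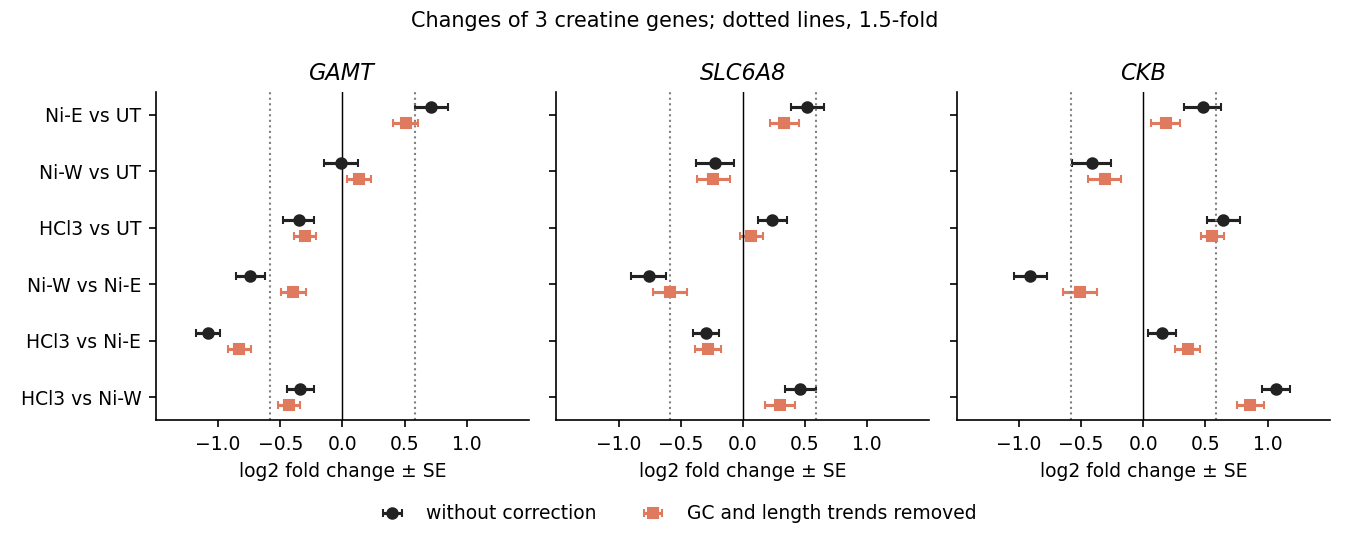
Log2 fold changes with SE (x axis) of GAMT, SLC6A8 and CKB in the 6 comparisons (y axis), without correction (black circles) and with the GC and length trends removed (orange squares); dotted lines mark 1.5-fold. GAMT in HCl3 vs Ni-E and CKB in HCl3 vs Ni-W lie outside the dotted lines with both.

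Single libraries also decided calls against UT. Without UT replicate 2, GAMT in Ni-E over UT was 0.58 and not called, and CKB in HCl3 over UT was 0.50 and not called. CKB in HCl3 over UT was not called without HCl3 replicate 2 (0.58, DESeq2 adjusted p = 0.0652). Without UT replicate 1, CKB in Ni-E over UT was called at 0.63, which made 2 members called. SLC6A8 in Ni-W against Ni-E was not called without Ni-W replicate 1 (-0.57). SLC6A8 was called in HCl3 against Ni-W without Ni-W replicate 2 (0.67).

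Around these members, 66 genes that supply or share their substrates were counted, and 54 were tested in Ni-E over UT. Of those, 10 rose and 0 fell with DESeq2 (11 and 0 with edgeR, and 5 at an unadjusted p under 0.05 in the lower direction), against 3.84% of all genes called higher and 2.1% lower, with a median log2 fold change of 0.176 against -0.00244 over all genes tested. With no fold threshold, DESeq2 gave 12 higher and 2 lower. Limma on log2(RPKM + 1) called 0 genes of these lists, with limma adjusted p of 0.0762 for PSAT1, CBS and PYCR1 and 0.15 for ASS1. The share of all genes that limma called is not given here, so this 0 cannot set these lists apart from other genes. Arginine supply contributed 2 of 11, namely SLC7A2, a cationic amino acid transporter, at 1.23 (SE 0.21, DESeq2 adjusted p = 9.05e-07), and argininosuccinate synthase ASS1 at 1.14 (SE 0.38, DESeq2 adjusted p = 0.0273). The Ni-E replicates of ASS1 stood apart at 24.38 and 41.58 RPKM, and its call was lost with the GC and length trends removed (DESeq2 adjusted p = 0.0641) and without either UT replicate. ASS1 also has processed pseudogenes, so its count is uncertain.

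Glycine supply contributed 4 of 10. The serine synthesis enzymes PHGDH, PSAT1 and PSPH, whose product feeds glycine, rose by 1.04, 1.08 and 0.66 on the log2 scale in Ni-E. PSAT1 went from 79.16 and 88.49 RPKM in UT to 181.3 and 188.79 in Ni-E, with no overlap. In the washed-out groups PSAT1 fell below UT, to 47.59 and 53.48 RPKM in Ni-W (log2 fold change -0.77, DESeq2 adjusted p = 2.17e-10) and to 39.41 and 37.49 in HCl3 (-1.18, DESeq2 adjusted p = 5.99e-30). PHGDH, the first enzyme of that route, returned to 105.03 and 95.58 RPKM in Ni-W and 77.05 and 82.88 in HCl3, against 86.78 and 77.36 in UT, and was not called there.

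Of the 10 genes of glycine supply and breakdown tested, 3 were called lower in each washed-out group with DESeq2, against 4.95% of all genes in Ni-W over UT and 3.84% in HCl3 over UT. DESeq2 and edgeR called 0 higher (11.1% and 11.4% of all genes with DESeq2), with 1 in Ni-W and 0 in HCl3 at an unadjusted p under 0.05 in the higher direction. GLDC, the decarboxylase of the glycine cleavage system, had 7.31 and 7.43 RPKM in the UT libraries, 10.14 and 8.15 in those of Ni-E, 1.11 and 1.03 in those of Ni-W, and 2.89 and 3.20 in those of HCl3. It fell in Ni-W (log2 fold change -2.82, SE 0.17) and in HCl3 (-1.33, SE 0.14) against UT. SLC6A9, a glycine transporter, fell by 1.42 in Ni-W and by 0.99 in HCl3.

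In the methyl donor cycle, the transsulphuration enzymes CBS and CTH, which draw homocysteine away from it, rose in Ni-E by 1.38 and 0.98. CTH then fell below UT in Ni-W (-0.91) and HCl3 (-1.17), whereas CBS differed from UT by -0.13 and -0.27 and was not called. NNMT, which uses S-adenosylmethionine to methylate nicotinamide, rose in Ni-W (0.59) and HCl3 (0.81).

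Ornithine, the other product of GATM, leads to proline and polyamines. PYCR1, the last enzyme of proline synthesis, rose in Ni-E (0.83) and fell in Ni-W (-0.98) and HCl3 (-0.69). Of 10 genes of this list, 6 fell in Ni-W and 3 in HCl3 with DESeq2, against 4.95% and 3.84% of all genes, with 0 higher in either by DESeq2, by edgeR or at an unadjusted p under 0.05 (11.1% and 11.4% of all genes called higher). The ornithine decarboxylase gene ODC1 fell by 0.60 in Ni-W and by 0.75 in HCl3. SRM (spermidine synthase) fell by 0.80 and PAOX (polyamine oxidase) by 0.81 in Ni-W, and AMD1, which makes the aminopropyl donor, fell by 0.65 in Ni-W and by 0.70 in HCl3. ARG2, the mitochondrial arginase, which also makes ornithine, fell in Ni-W (-0.73) and HCl3 (-0.89), and SLC7A2 fell in both (-1.83 and -0.96).

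Among other energy-buffering enzymes and related transporters, AK4, a mitochondrial adenylate kinase family member, rose in all 3 comparisons with UT, from 3.03 and 2.74 RPKM in the UT libraries to 6.30 and 5.90 in those of Ni-E, 7.55 and 7.65 in those of Ni-W, and 10.19 and 9.65 in those of HCl3. Its log2 fold changes were 1.03 (SE 0.14), 1.36 (SE 0.13) and 1.73 (SE 0.12). The taurine transporter gene SLC6A6 rose by 0.62 in Ni-W. The 3 nitric oxide synthase genes, which compete with GATM for arginine, were too low to be tested. Over all lists, 4 genes rose and 12 fell of 55 tested in Ni-W over UT, and 3 rose and 9 fell of 55 in HCl3 over UT, with medians of -0.158 and -0.109 against 0.00582 and 0.00726 over all genes. Of all genes, 11.1% rose and 4.95% fell in Ni-W over UT, and 11.4% rose and 3.84% fell in HCl3 over UT.

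Some of these calls rested on single libraries or on GC content. PYCR1 in Ni-E fell under 1.5-fold with the GC and length trends removed (0.57), as did ODC1 in Ni-W (-0.55), AMD1 in HCl3 (-0.58) and SLC6A6 in Ni-W (0.58). SLC7A2 in HCl3 was not called without HCl3 replicate 2 (DESeq2 adjusted p = 0.319) or without UT replicate 2 (DESeq2 adjusted p = 0.087), or with limma on log2(RPKM + 1) (limma adjusted p = 0.0619). In Ni-W over UT, leaving out Ni-W replicate 1 ended the calls of CTH, NNMT, PAOX and SLC6A6 (DESeq2 adjusted p = 0.0837, 0.0751 and 0.171 for the first 3, and 0.58 on the log2 scale for SLC6A6). The NNMT call there was also lost without UT replicate 2 (0.43). The PAOX call was lost without Ni-W replicate 2 (DESeq2 adjusted p = 0.198) and without UT replicate 1 (DESeq2 adjusted p = 0.254).

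**Figure D4:**
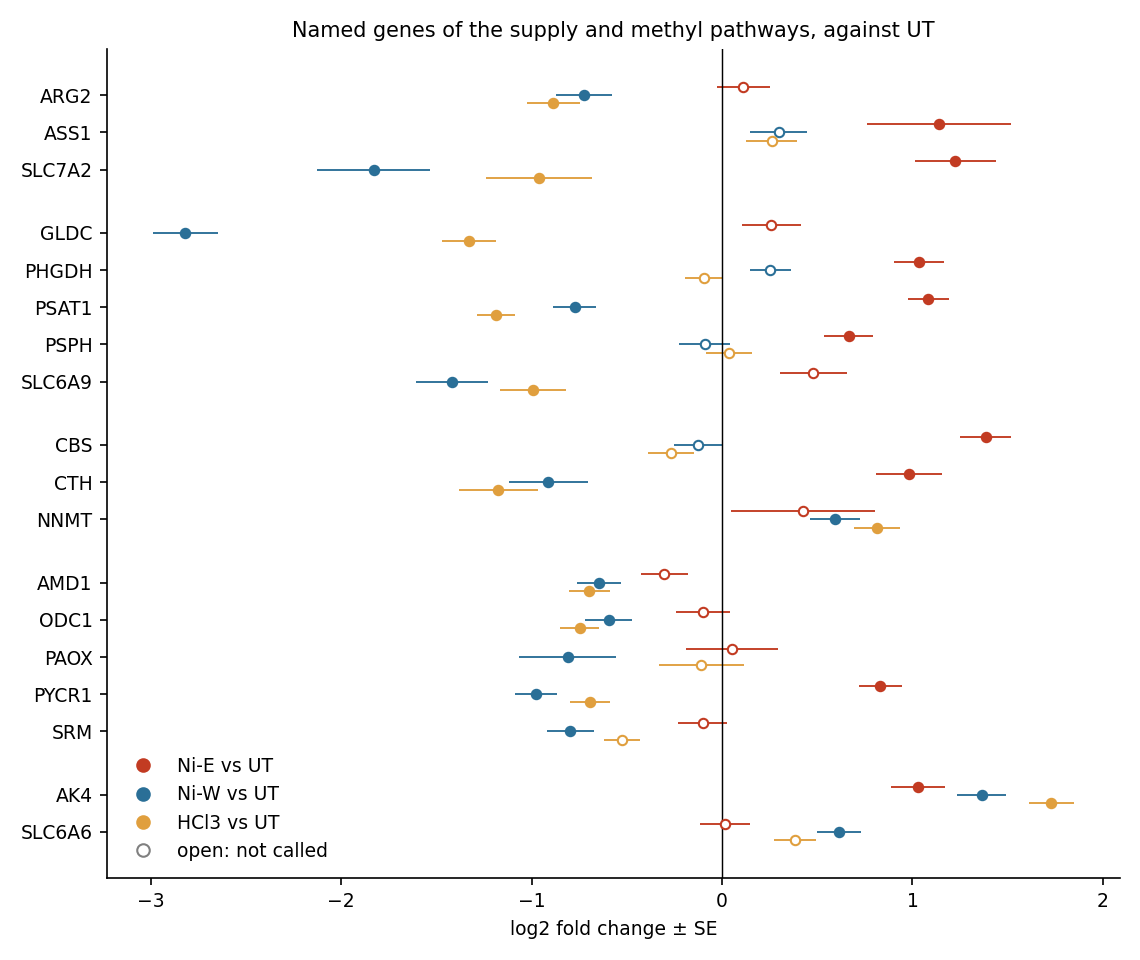
Log2 fold changes with SE against UT (x axis) of the named genes (y axis) of arginine supply, glycine supply and breakdown, the methyl donor cycle, ornithine and polyamines, and other energy buffering, from top to bottom. Filled points were called (DESeq2, adjusted p under 0.05 and at least 1.5-fold). PSAT1, CTH, PYCR1 and SLC7A2 lie above 0 in Ni-E and below 0 in Ni-W and HCl3.

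The genes whose pattern was most like that of GATM were ranked by Pearson's r of log2(normalised count + 1) over the 8 libraries, among 12014 genes with a mean normalised count of at least 50. The highest were NTN1 (netrin 1) at r = 0.987, REPS2 at 0.983, HDAC3 (a histone deacetylase) at 0.982, SAPCD2 at 0.98 and MCAM (a cell adhesion molecule) at 0.978. The points share groups and libraries, so r is a description, and r takes no account of the size of the change. NTN1 measured 0.15 ± 0.071 RPKM for UT, 1.53 ± 0.23 for Ni-E, 0.71 ± 0.028 for Ni-W and 0.605 ± 0.050 for HCl3 (SD, n = 2). HDAC3 measured 47.8 ± 0.11 RPKM for UT, 61.0 ± 2.1 for Ni-E, 56.5 ± 0.495 for Ni-W and 56.9 ± 0.325 for HCl3. The ranking depends on the measure, since of these 5 genes 1 was among the first 5 on log2(RPKM + 1) and 0 by Spearman's rho, where NTN1 had a rho of 0.905 that 54 genes reached.

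GATM was also set beside its neighbours on chromosome 15. Of 12 genes lying within 250 kb of its ends, 6 were tested in Ni-E over UT and 0 were called by DESeq2 or edgeR, with 1, SHF, at an unadjusted p under 0.05. In Ni-W over UT and in HCl3 over UT, 7 were tested and 3 were called higher, with 0 lower by DESeq2, by edgeR or at an unadjusted p under 0.05. The shares over all genes were 11.1% higher and 4.95% lower in Ni-W, and 11.4% higher and 3.84% lower in HCl3. The 3 neighbours called were DUOX1, which encodes an NADPH oxidase, SHF, an adaptor protein, and C15orf48. C15orf48 rose by 2.96 on the log2 scale (SE 0.31) in Ni-W and by 2.20 (SE 0.32) in HCl3, and differed by 0.32 (SE 0.54) in Ni-E. SHF rose by 1.59 in Ni-W and 1.27 in HCl3, and DUOX1, at no more than 87 reads in any library, by 3.92 and 3.32. The DUOX1 call in HCl3 was lost without either HCl3 replicate (DESeq2 adjusted p = 0.087 without replicate 1 and 0.0876 without replicate 2). SPATA5L1, the gene nearest to the GATM start, differed from UT by 0.08 in Ni-E, by -0.03 in Ni-W and by -0.05 in HCl3. The neighbours called thus had their higher levels in the washed-out groups, whereas GATM had its highest level in Ni-E. Whether strand was used in counting is not given in the sources used here.

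**Figure D5:**
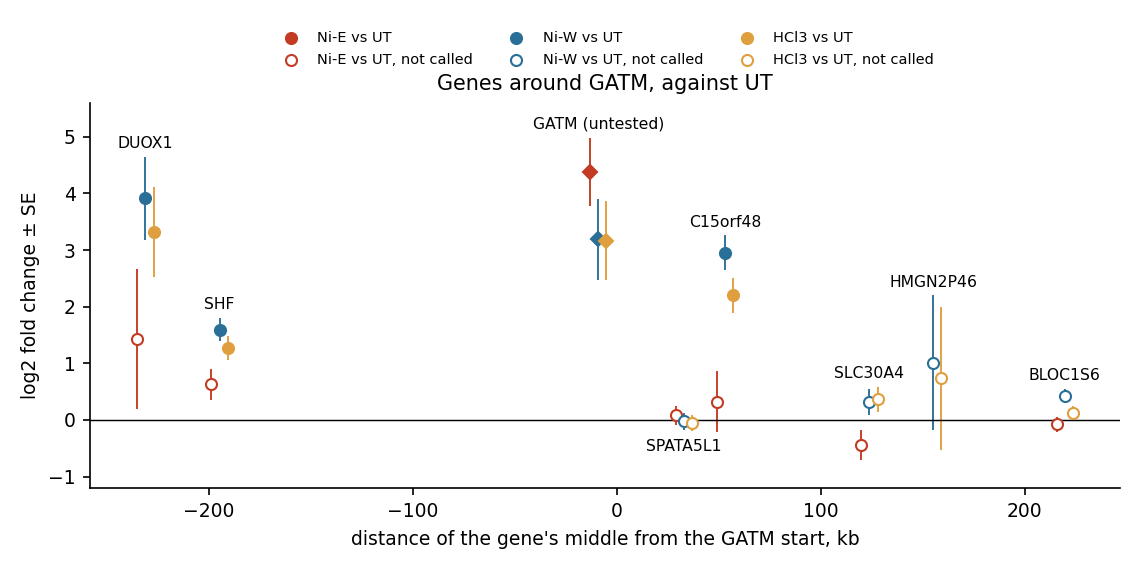
Log2 fold changes with SE against UT (y axis) of the tested genes within 250 kb of GATM, placed by the distance in kb of each gene's middle from the GATM start (x axis, small offsets separate the comparisons). Diamonds are GATM, untested; filled circles were called. DUOX1, SHF and C15orf48 are filled in Ni-W and HCl3 and open in Ni-E.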

How the data were processed

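RNA-Seq libraries (2 biological replicates per group) were made by the authors with a TruSeq RNA kit and sequenced on an Illumina HiSeq instrument. Reads were aligned to hg19 with STAR 2.4, multi-hits were removed, and RefSeq genes were quantified with BioWardrobe. The deposited tables give read counts and RPKM per gene as the authors computed them. Normalised counts are reads divided by median-of-ratios size factors. Groups were compared pairwise with DESeq2 1.42.0 (R 4.3.3, Wald test, two-sided, Benjamini-Hochberg over all genes), with calls at an adjusted p under 0.05 and at least 1.5-fold, after the methods of the study. Exact permutation of 2 against 2 libraries cannot go below p = 0.333 and was not used. Alternatives were edgeR 4.0.16, limma 3.58.1 on log2-transformed RPKM with a pseudocount of 1 or 0.1, TMM factors, a mean count of at least 10, all 8 libraries in one fit, other fold thresholds, a replicate block, removal of the GC and length trends, and leaving out each replicate. GC content was matched for 98.3% and length for 99.2% of expressed genes. The procedures were tested on simulated data.

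The members and gene lists were chosen with earlier results of these data known. Of 67 pathway symbols, 66 were matched. Named pathway genes were those called in a comparison with UT with a mean normalised count of at least 50, at most the 3 largest per list and comparison, of which 1 is not reported here. The 5 genes most like GATM and its neighbours within 250 kb were named by the same kind of rule. Promoter windows are from RefSeq.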

Additional observations from a re-analysis of the deposited data

Results flagged for a closer look

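Ni-W and HCl3 differed in their change from UT for CKB and for 2 of the named pathway genes, when both groups were compared directly with DESeq2. CKB differed by 1.07 on the log2 scale (HCl3 over Ni-W, DESeq2 adjusted p = 2.1e-18), with changes from UT of 0.64 in HCl3 and -0.42 in Ni-W. GLDC differed by 1.49 (DESeq2 adjusted p = 1.91e-13), with changes from UT of -1.33 in HCl3 and -2.82 in Ni-W. PAOX differed by 0.71 (DESeq2 adjusted p = 0.0119), with changes from UT of -0.11 in HCl3 and -0.81 in Ni-W, and was not called with the GC and length trends removed (0.55, DESeq2 adjusted p = 0.0631), whereas CKB (0.86) and GLDC (1.46) were. Whether HCl3 and Ni-W are separate clones is not given, and each has 2 libraries.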

How the results depend on the processing

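The suffixes of the labels only number the replicates. Same-numbered libraries correlated at -0.14 to 0.189 in their deviations from the group means, and a replicate block left the count of creatine genes called at 1, 0, 1, 3, 1 and 1 in the 6 comparisons (Ni-E over UT, Ni-W over UT, HCl3 over UT, Ni-W over Ni-E, HCl3 over Ni-E and HCl3 over Ni-W). Among named pathway genes in comparisons with UT, the block ended the call of SLC7A2 in HCl3 (adjusted p = 0.056). Pairing UT and HCl3 crosswise, chosen after seeing the data, gave 1 creatine and 12 pathway genes. Creatine genes called became 0 in Ni-E over UT, 0 in HCl3 over UT and 0 in Ni-W against Ni-E with the GC and length trends removed, and 0, 0 and 1 with the block as well. Limma on either scale called 0 creatine and 0 pathway genes in Ni-E over UT, and 10 pathway genes in Ni-W over UT on log2(RPKM + 1). Shares of all genes called by limma are not given here. EdgeR called 1 creatine gene in Ni-W over UT. With no fold threshold the creatine counts were 3, 1, 2, 2 and 3 in the same order without Ni-W over Ni-E, and 23 pathway genes were called in HCl3 over UT. At 2-fold they were 0 in Ni-E over UT, HCl3 over UT and Ni-W against Ni-E, and the pathway counts were 6, 4 and 4 in the comparisons with UT. Leaving out single replicates gave 0 to 2 creatine genes in Ni-E over UT, 0 to 1 in HCl3 over UT, 1 to 2 in HCl3 over Ni-W and 10 to 15 pathway genes in Ni-W over UT.

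Some uncalled differences near 0 changed sign. CKMT1A in Ni-E over UT became -0.11 with the GC and length trends removed, -0.0784 with the block as well and -0.26 to 0.43 without single replicates. GAMT in Ni-W over UT became 0.0401 and 0.041 with limma on the scales of pseudocount 1 and 0.1, 0.13 with the GC and length trends removed, with or without the block, and -0.15 to 0.14 without single replicates. Without single replicates, CKMT1A ran from -0.20 to 0.48 and CKMT1B from -0.18 to 0.28 in HCl3 over UT, and CKMT1A from -0.15 to 0.23 in HCl3 over Ni-E, where summing both copies gave -0.21. Over the tested members, called or not, 372 of 407 recomputed fold changes kept their direction and their side of the thresholds. For pathway and neighbour genes, 559 of 652 did so. Those 652 cover only named pathway genes and neighbours, each in comparisons where the main fit had already called it. None of them changed direction, which such a choice favours. Pathway and neighbour genes that were not called are not in this count, so it does not show how stable they are. GATM stayed higher than UT throughout. Depth limits GATM in UT (11 reads over both libraries), CKM and both CKMT1 copies. With 1 library left in a group, it was assumed to vary like the others.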
